A study of Mus musculus with 2 samples.

Results

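Serpins are a superfamily of proteins that mostly inhibit serine proteases, and 9 of them were described here in the retinal pigment epithelium (RPE) and choroid of mice: Serpina3n, Serpina3g, Serpine2, Serpine3, Serpinf1, Serpinh1, Serpinb6a, Serpinb9 and Serpini1. They were matched by symbol and made up 9 of the 62 Serpin genes and of the 32285 genes counted. The genes had been picked with their levels by cell type and their difference between the libraries in view, so those values are descriptions and none of them is tested. Single cells were counted in 2 droplet libraries of C57BL/6J mice aged 3 months. In both groups 1 µl was injected under the retina, PBS in control and doxorubicin (Dox, a topoisomerase poison that damages DNA) at 100 ng/µl in the other. Eyes were collected 7 days later, the retina was taken off, and the RPE, choroid and sclera were digested to single cells and freed of dead cells. Each library pooled 10 eyes of 5 mice, so a condition is 1 library and the drug, the injections and the library cannot be told apart. The paper states that the injected drug reached only a part of the RPE. Levels in Dox RPE cells are therefore those of a mixture of reached and unreached cells.

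A classical serpin offers its target a reactive loop as bait. The protease cuts the loop, the serpin snaps into another shape and both stay locked together, so each inhibitor molecule works a single time. Some members have lost this activity and act as chaperones or as signals, and in the eye the family is best known for Serpinf1, the anti-angiogenic pigment epithelium-derived factor. Of the inhibitors, Serpina3n is a secreted acute-phase protein of the antichymotrypsin group, and Serpina3g is its intracellular neighbour described in lymphocytes. Serpine2 (protease nexin-1) blocks thrombin and plasminogen activators at the cell surface, and Serpini1 (neuroserpin) blocks tissue plasminogen activator. Serpinb6a and Serpinb9 are cytosolic, and Serpinb9 inhibits granzyme B in cytotoxic cells. Serpinh1 (Hsp47) inhibits no protease and is the collagen chaperone of the endoplasmic reticulum. Serpine3 is a little studied relative of Serpine2.

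Serpina3g and Serpina3n lie near each other on chromosome 12, at 104236245 to 104241939 and 104406729 to 104414329 of GRCm38, both on the plus strand. Their RefSeq promoters (250 bases before to 50 after the start, GRCm38.p6, plus strand) are shown because they belong to one gene cluster while the genes were found in different cells. The capitals mark a STAT motif, TTCNNNGAA, in Serpina3g and the bases aligned with it in Serpina3n.
Serpina3g, chr12:104235897-104236196: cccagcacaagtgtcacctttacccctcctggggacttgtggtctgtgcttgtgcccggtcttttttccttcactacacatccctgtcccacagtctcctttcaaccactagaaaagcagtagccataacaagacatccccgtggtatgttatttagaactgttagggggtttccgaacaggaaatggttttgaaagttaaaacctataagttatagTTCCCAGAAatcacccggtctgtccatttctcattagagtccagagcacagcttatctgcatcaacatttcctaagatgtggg
Serpina3n, chr12:104406458-104406757: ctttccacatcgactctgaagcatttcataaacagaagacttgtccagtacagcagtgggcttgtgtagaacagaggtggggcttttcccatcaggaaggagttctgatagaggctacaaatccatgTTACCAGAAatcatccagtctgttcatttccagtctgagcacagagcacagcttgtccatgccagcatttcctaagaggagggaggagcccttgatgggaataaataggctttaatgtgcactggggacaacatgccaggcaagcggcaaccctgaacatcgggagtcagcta
An ungapped stretch of 84 bases of Serpina3g, from 34 before to 49 after its start, matched the Serpina3n bases from -124 to -41 at 64 bases (76.2%). The motif of Serpina3g begins at -33. The aligned bases of Serpina3n, which begin at -123, differ from it by C3A (the base of Serpina3g first, counted from 1 at the motif's first base), so these letters are not a match there. On either strand, the STAT motif was in 8.30% of all 32851 promoter entries, and of the 10 entries of the members only those of Serpina3g and 1 of the 2 of Serpinb6a held it. TTTCNNTTTC, an interferon-response-like motif found in 3.44% of entries, was in the Serpinb9 promoter and in the same Serpinb6a promoter, where it overlaps one of the STAT matches. The OTX motif TAATCC (7.06%), the E-box CACGTG (7.15%) and TATAAA (13.6%) were in none of the member promoters. A match is a description of the letters and not a bound site.

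The control library held 20180 cells after filtering (median 4495 UMIs, counted RNA molecules) and the Dox library 15426 (median 4995), out of 117731270 and 103997248 UMIs in all. The 2 libraries shared 427 cell barcodes. RPE cells were those with at least 10 UMIs of Rpe65, the retinoid isomerase of the RPE, which gave 1526 cells in control (7.56%) and 1630 in Dox (10.6%), with median depths of 16013.5 and 18115.5 UMIs. Most of them, 1304 and 1382, fell in the RPE-like cluster. Their 13 RPE markers, Rpe65 among them, summed to 109959 and 110405 UMIs per 1000000 UMIs of the cells (CPM). In fibroblast-like cells these markers summed to 4665 and 6784 CPM. In each library 12 of the 13 were at 10 or more CPM in RPE cells. The same count was found in every other named type, so it does not set RPE cells apart. The remaining cells sat elsewhere, among them 91 and 61 in the melanocyte-like cluster and 21 and 55 in fibroblast-like clusters. In RPE cells the 10 melanocyte markers summed to 3190 CPM in control and 2354 in Dox. They include pigment genes such as Pmel, which the paper reports in RPE cells, so their sum is not read as RNA of other cells. Fibroblast and macrophage or dendritic cell RNA was present in RPE cells and was lower in Dox. The 20 fibroblast markers summed to 2556 CPM in control and 1708 in Dox, and the 23 macrophage or dendritic cell markers to 434 and 201. Conversely, Rpe65 was counted in 62.9% of NK or T cells in control and 75.8% in Dox, so shares of cells with a UMI are read here against cells that should lack the gene. Levels are summed UMIs of a group in CPM, with 95% Poisson intervals in brackets. Those intervals and the intervals of ratios and shares cover counting error only, and they leave out the differences between cells and between mice.

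The members differed in the cell type that held their highest level, though several shared one. The plot of levels by cell type sets out RPE cells and the 6 named types beside them. For all 9 members the same one of these led in both libraries. Serpine2, Serpinf1, Serpinh1 and Serpinb6a were highest in the fibroblast-like cells of the choroid and sclera. Serpini1 was highest in the smooth muscle or pericyte-like cells, Serpinb9 and Serpina3g in the NK or T-like cells, and Serpine3 and Serpina3n in RPE cells. Cells were clustered without any Serpin gene. The melanocyte-like cluster was shallow, with median depths of 1260.5 and 764 UMIs outside the RPE cells, and was led by the haemoglobin gene Hbb-bs as well as by Pmel. Outside the RPE cells its 10 melanocyte markers summed to 38146 CPM in control and 27683 in Dox. Its 13 RPE markers summed to 11286 and 32867 CPM, so its levels are those of a mixed group. The NK or T-like cluster was led by an immunoglobulin gene, Igkv4-91, before Gzma and Nkg7.

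**Figure D1:**
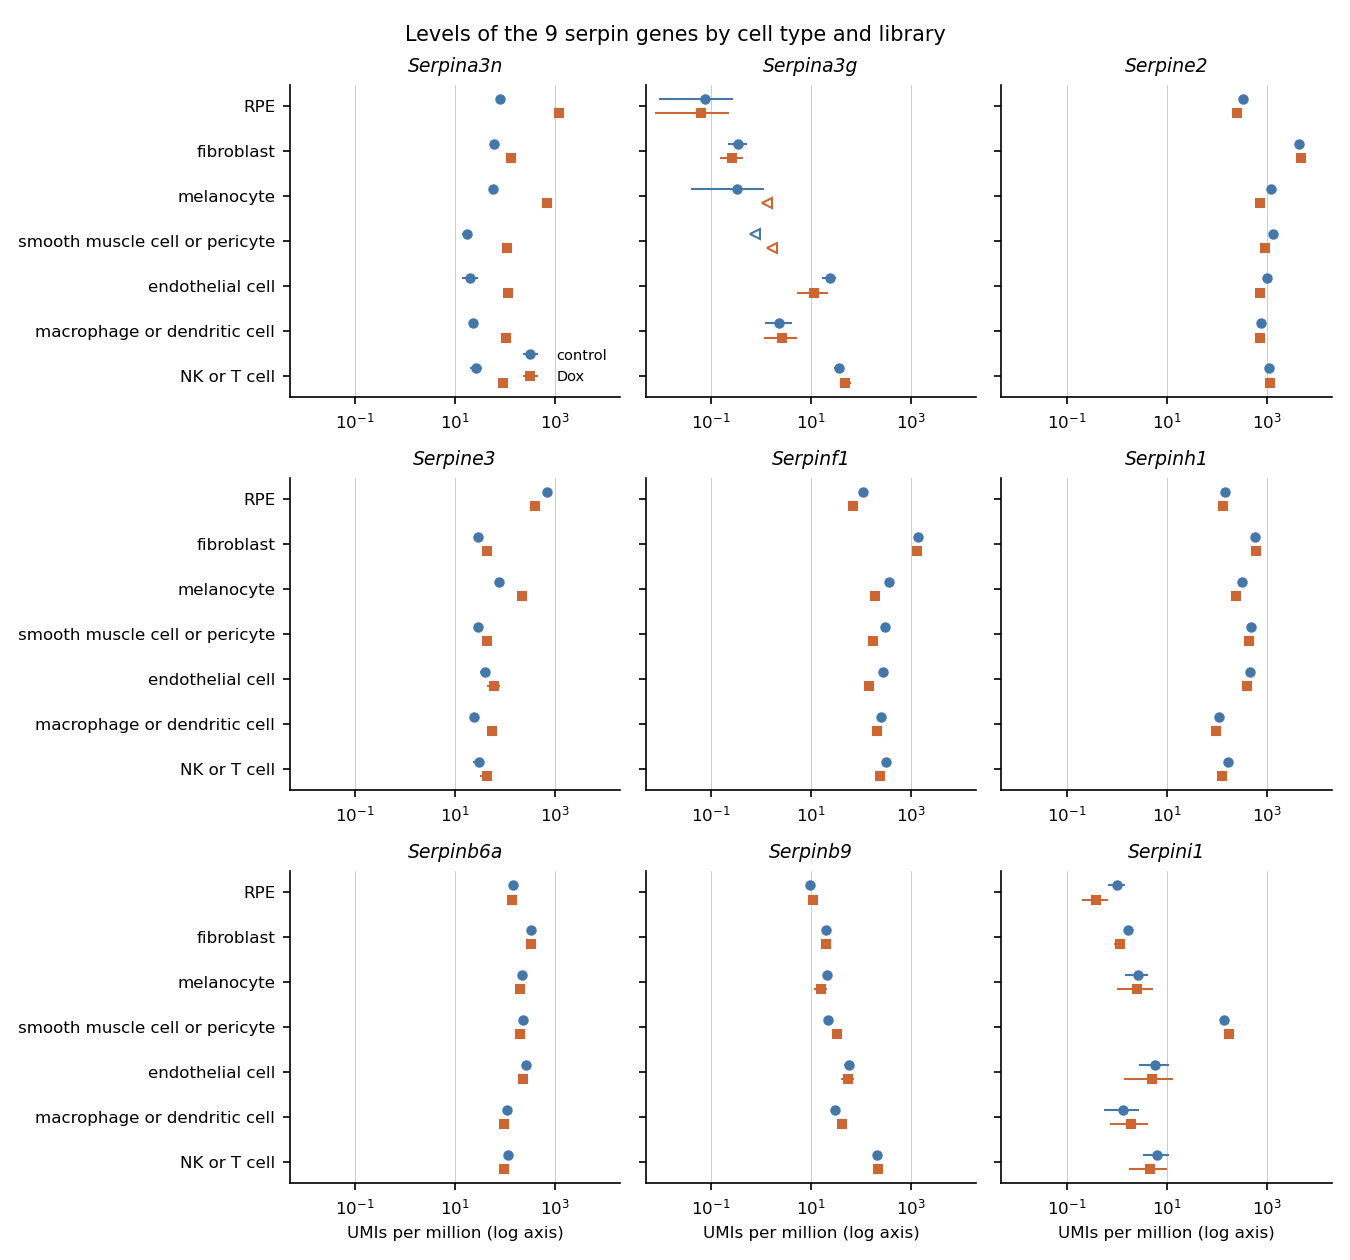
Level of each member (CPM, log axis) in RPE cells and in the named cell types, control and Dox library, with 95% Poisson intervals that cover counting error only. Open triangles give the upper limit of the interval where no UMI was counted. Serpina3n is at least 2.28-fold higher in Dox in each of these cell types, which holds for no other member.

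Against all other cells of the control library, Serpine3 was 21.0-fold higher in RPE cells, at 699 against 33.3 CPM. Among 14990 genes with at least 50 UMIs, 6% were 4-fold higher in RPE cells, and Serpine3 was the single member of the 9 that passed. On the other side, 20.8% of genes were 4-fold lower, and 4 members passed. Serpina3g was 22.7-fold lower on 2 UMIs in RPE cells, Serpine2 10.6-fold, Serpinf1 9.80-fold and Serpini1 9.19-fold. Serpina3n (1.48-fold higher), Serpinh1 (3.59-fold lower), Serpinb9 (2.70-fold lower) and Serpinb6a (2.09-fold lower) stayed within 4-fold.

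In RPE cells, Dox against control, 7 of the 9 members had the 50 UMIs asked of a gene, and Serpina3n alone passed a 2-fold difference. Of the 12774 genes with 50 UMIs, 0.446% were 2-fold higher in Dox and 1.86% were 2-fold lower, so 1 of 7 higher and 0 of 7 lower is set beside those shares. Since the members were chosen with this contrast known, nothing further is read from the counts. The median log2 ratio of the 7 members was -0.13, and that of all 12774 genes was -0.012. Serpine3, Serpinf1 and Serpine2 were lower in Dox by less than 2-fold, and Serpinh1, Serpinb6a and Serpinb9 lay within 0.19 of 0.

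**Figure D2:**
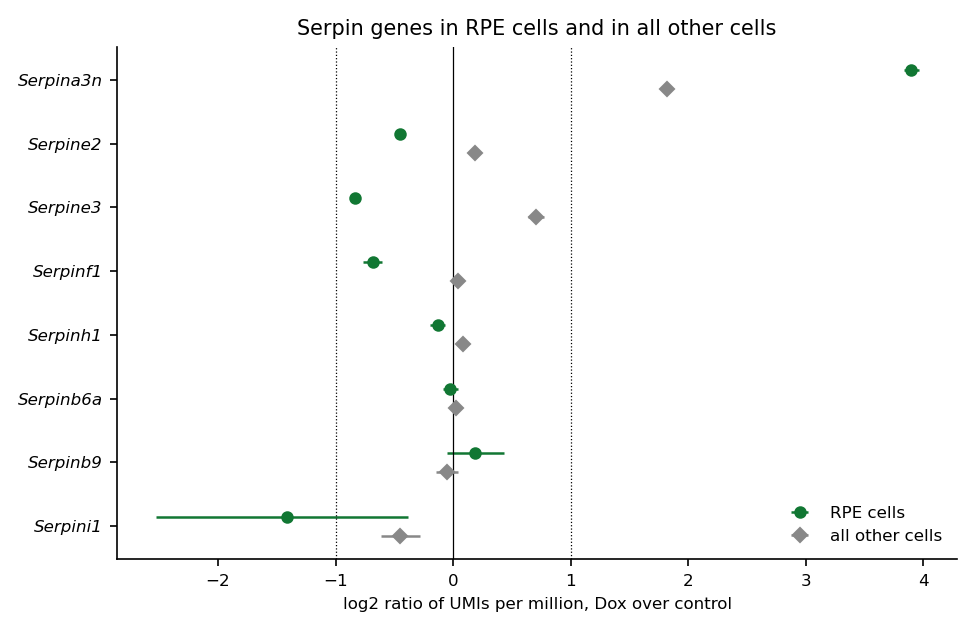
Log2 ratio of Dox over control for 8 members in RPE cells and in all other cells together, with exact 95% intervals that cover counting error only and dotted lines at 2-fold. Serpina3n is higher in Dox in both, while Serpine3 is lower in RPE cells (-0.83) and higher in the other cells (0.71). Serpina3g, with 2 UMIs in RPE cells of each library, is not shown.

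Serpina3n, the acute-phase inhibitor, was at 79.4 CPM in control RPE cells [76.1 to 82.9; 2090 UMIs] and at 1184 in Dox [1172 to 1196; 36938 UMIs]. This was a 14.9-fold difference, or 3.90 on the log2 scale [3.83 to 3.96]. Among all genes with 50 UMIs it ranked 3 from the top. Lcn2, an iron-scavenging acute-phase protein that ranked above it and was looked up after the ranking was seen, rested on few UMIs, 7 in control and 170 in Dox. RPE cells held 30.4% of the library's Serpina3n UMIs in control and 74.1% in Dox.

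The Serpina3n level was also higher in Dox in every other cell type. It was 2.28-fold higher in fibroblast-like cells (58.5 to 133 CPM), 4.66-fold in macrophage or dendritic cells (22.5 to 105), 3.49-fold in NK or T-like cells (26.2 to 91.4), 6.52-fold in smooth muscle or pericyte-like cells (17.0 to 111) and 5.53-fold in endothelial-like cells (20.2 to 111). The ratio was 12.1-fold in the shallow melanocyte-like cluster (56.1 to 680 CPM), where Rpe65 also went from 512 to 1442 CPM. Cells of the RPE-like cluster with fewer than 10 Rpe65 UMIs, 83 in control and 81 in Dox, went from 241 to 4347 CPM, 18.0-fold. All cells outside the RPE group together were at 53.7 CPM in control and 189 in Dox. In Dox the levels of endothelial, smooth muscle, macrophage or dendritic and NK or T-like cells were ordered without gaps, since neighbouring intervals overlapped. How much of the signal in these types was RNA released by other cells was not tested.

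Within the RPE the Serpina3n RNA was packed into a minority of cells, and the Dox library held more of them. Whether these were the cells that the drug had reached was not tested. The share of RPE cells with a Serpina3n UMI was 15.2% [13.4 to 17.1] in control RPE and 52.1% [49.7 to 54.6] in Dox RPE. NK or T-like cells, at median depths of 3808 and 3989.5, gave 9.32% and 34.5%. With every cell of at least 1000 UMIs thinned to 1000, RPE cells showed 3.28% [2.45 to 4.31] and 18.6% [16.7 to 20.6], and NK or T-like cells 2.58% [1.30 to 4.57] and 12.8% [8.92 to 17.6]. The intervals of RPE and NK or T-like cells thus overlapped in both libraries. In Dox the melanocyte-like cells (32.8%) and the unnamed cells (22.9%) had a higher share than RPE cells. In control the fibroblast-like cells (4.73% [4.37 to 5.12]) and the unnamed cells (4.98%) did. The RPE-like cells under the Rpe65 limit had the highest share in both libraries. It was 8.11% [3.03 to 16.8] of 74 cells in control and 58.9% [46.8 to 70.3] of 73 in Dox. The melanocyte-like share in Dox rests on the 629 deeper cells, since 1356 had too few UMIs to be thinned. That group also held RPE marker RNA. A share of RPE cells that made the transcript was therefore not readable from single UMIs. The upper end of the distribution differed more. Cells with 10 or more Serpina3n UMIs numbered 36 in control (2.36%) and 225 in Dox (13.8%), and cells with 100 or more numbered 4 and 126. The highest cell held 237 UMIs in control and 743 in Dox, and 8 and 49 cells held 50% of all Serpina3n UMIs. After thinning to 5000 UMIs, which left out 186 and 202 shallower cells, 0.597% of control and 11.6% of Dox cells had 10 or more.

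**Figure D3:**
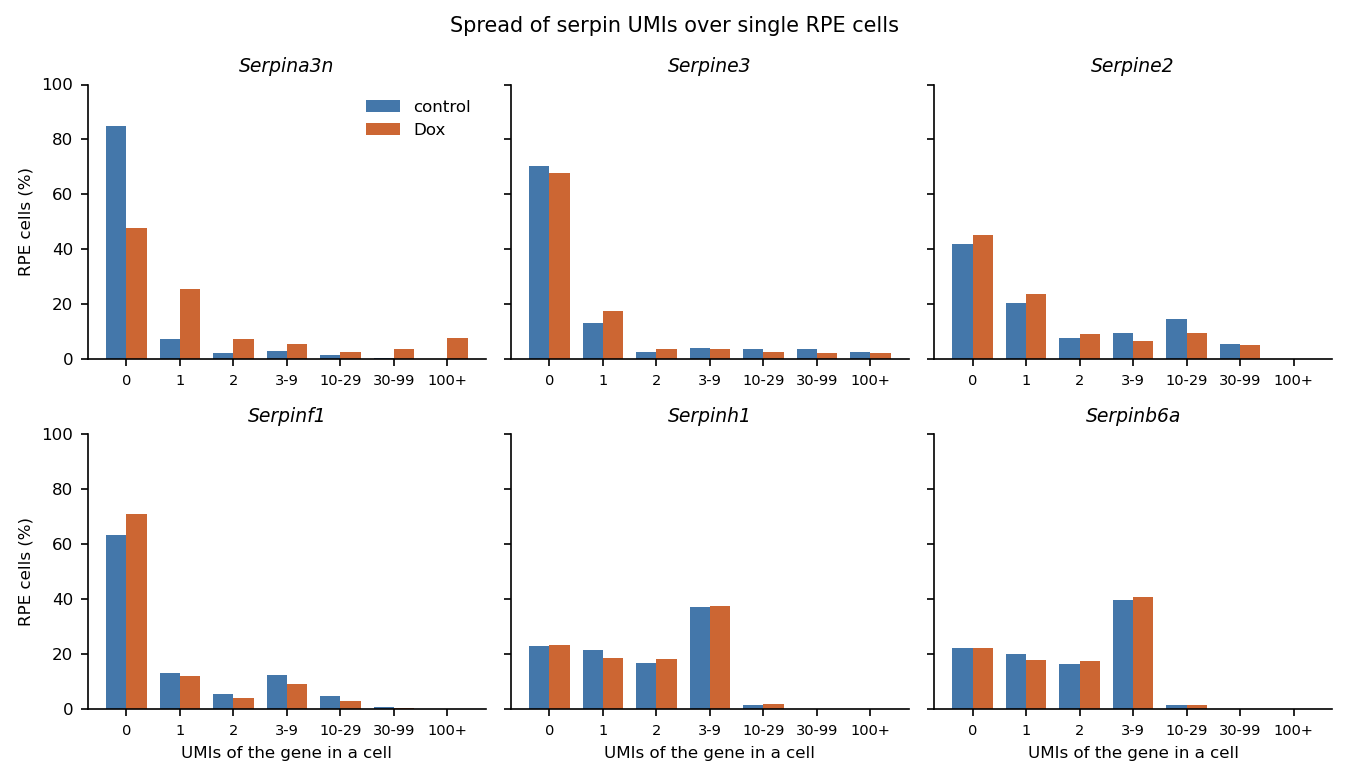
Distribution of UMIs per cell over RPE cells of the control (1526 cells) and Dox (1630 cells) library for members with even and uneven spread. Serpina3n and Serpine3 have most cells at 0 or few UMIs and a long tail past 100, whereas Serpinh1 and Serpinb6a have a median of 2 UMIs in both libraries and no cell above 38.

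Most of the Serpina3n UMIs lay in this tail. With the cells of 100 or more Serpina3n UMIs left out, Dox over control was 1.90 on the log2 scale, and with the cells of 10 or more left out it was 1.34, settings chosen after the data were seen. These settings remove cells by the measured gene itself, and the ratio in all cells outside the RPE group was 1.82, so nothing is read from them about RPE cells outside the tail. The cells with at least 10 UMIs held 80.1% of Serpina3n UMIs in control RPE and 97.2% in Dox RPE. These cells were deep, with median depths of 31470.5 and 29405 UMIs against 15485.5 and 15749.5 for cells with none. In control their median doublet score was 0.313 against 0.116, and 33.3% of the 36 were among the cells with the highest scores. In Dox the scores were 0.139 and 0.085, and 3.56% of the 225 were among the highest. Whether doublets or depth set the tail was not tested, and with the highest-scoring cells left out the ratio was 4.07 on the log2 scale.

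RPE cells with more Serpina3n had less Rpe65. In Dox, Rpe65 was at 5819 CPM [5779 to 5860] in the 780 cells without a Serpina3n UMI and at 1980 [1943 to 2017] in the 184 cells with 30 or more. A2m, the broad protease trap alpha-2-macroglobulin, moved the other way, from 215 [207 to 223] to 2893 [2848 to 2938] CPM. Cdkn1a, the cell cycle inhibitor p21, was at 41.7 [38.3 to 45.3] in the former cells and at 326 [311 to 341] in the latter. The 13 control cells with 30 or more Serpina3n UMIs also had less Rpe65, 2703 against 5210 CPM, and more A2m, 983 against 189. Their Cdkn1a was at 38.3 CPM [22.7 to 60.5], within the counting error of the 42.9 in control cells without a Serpina3n UMI. Cells were grouped here by the measured gene within each library, so these are descriptions of the cells and not of the drug.

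Genes that went with high Serpina3n in control were looked up in Dox, a library that took no part in choosing them. Of genes with 100 UMIs or more in the cells compared, the 11 with the highest fold in the 36 control cells with 10 or more Serpina3n UMIs over the 1294 cells at 0 were taken. They were seen first in control and include Gsta3 (182 against 10.5 CPM), a glutathione transferase, Timp1 (88.9 against 7.70), an inhibitor of matrix metalloproteases, and Gpnmb (1805 against 256), a lysosomal glycoprotein. In Dox 10 of them could be compared, 8 were 2-fold higher in the 225 high cells, and 2.07% of 9382 genes were. Of the 11, 4 were again among the leading genes. Ecrg4 and Igfbp2 stayed within 2-fold in Dox, at 0.92 and 0.54 on the log2 scale, after 3.55 and 3.24 in control. Of 12 genes lowest in the high cells of control, 9 could be compared and 5 were 2-fold lower in Dox, where 4.92% of genes were. Of the 12, 0 were again among the lowest in Dox. The 5 include H2-Aa, Tyrobp and H2-Eb1, which are markers of macrophages or dendritic cells. In control H2-Aa was at 0 CPM in the high cells and 37.6 in the cells at 0, so it passed the UMI limit through the latter. The part of macrophage or dendritic cell RNA in these values was not tested. The depth gap and the doublet scores given above accompany these values.

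Serpine3, the member closest to an RPE marker, was lower in Dox RPE. Its level was 699 CPM in control [689 to 709; 18384 UMIs] and 393 in Dox [386 to 400; 12254 UMIs], a log2 ratio of -0.83 [-0.86 to -0.80]. RPE cells held 86.1% of its UMIs in the control library and 76.8% in Dox. In every named type outside the RPE the level was higher in Dox: from 28.4 to 43.2 CPM in fibroblast-like cells, 23.8 to 55.0 in macrophage or dendritic cells, and 76.8 to 217 in melanocyte-like cells. In NK or T-like cells it went from 29.6 to 42.6, with an interval of the log2 ratio from -0.04 to 1.08.

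Rpe65 serves as a yardstick for RPE RNA in such cells. Per 1000 Rpe65 UMIs, the control library had 141 Serpine3 UMIs in RPE cells [139 to 143], 143 in fibroblast-like cells [136 to 150] and 113 in NK or T-like cells [85.4 to 148]. In Dox the value was 80.7 in RPE cells [79.2 to 82.2], 158 in fibroblast-like cells [151 to 165] and 141 in NK or T-like cells [104 to 187]. The types did not all lie at the RPE value in control, since macrophage or dendritic cells were at 113 [93.0 to 136] and endothelial-like cells at 193 [146 to 251]. In Dox all 6 named types were above the RPE value, from 141 to 191. Melanocyte-like cells were at 150 in control [136 to 166] and 151 in Dox [138 to 164]. For Serpina3n the control values were 16.0 per 1000 Rpe65 UMIs in RPE cells, 295 in fibroblast-like cells and 77.7 to 110 in the 5 other named types. In Dox they were 243 [241 to 246] in RPE cells, 302 [243 to 373] in NK or T-like cells, 331 [257 to 423] in endothelial-like cells, 363 [319 to 414] in macrophage or dendritic cells and 487 [474 to 501] in fibroblast-like cells. Smooth muscle or pericyte-like cells were at 379 [325 to 441] in Dox and melanocyte-like cells at 472 [446 to 498]. RPE-like cells under the limit were far from these values in Dox, at 6194 after 306 in control. What the ratios owe to released RNA was not tested.

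The Serpine3 level rested on very few cells. Its share of RPE cells with a UMI was 29.6% in control and 32.3% in Dox, set beside 11.7% and 18.3% in NK or T-like cells. Thinned to 1000 UMIs, the RPE shares were 10.8% [9.32 to 12.5] and 9.39% [8.02 to 10.9] and the NK or T shares 4.69% [2.89 to 7.16] and 5.60% [3.10 to 9.22]. Above this background, 151 control cells (9.90%) and 113 Dox cells (6.93%) held 10 or more UMIs, and these cells held 96.9% and 94.1% of the Serpine3 UMIs. In control, 15 cells held 50% of them and the highest cell had 1432 UMIs. In Dox it was 17 cells and 853 UMIs. The variance of UMIs per cell was 431 times the mean in control and 260 times in Dox. Without the cells of 10 or more UMIs, a setting chosen after the data were seen, the log2 ratio was 0.05, and without those of 100 or more it was -0.75. Since cells are removed here by the measured gene and hold nearly all of its UMIs, these values are descriptions. The Poisson interval above, which takes no account of this, is much narrower than the spread between cells.

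RPE cells with high Serpine3 also had higher levels of other genes, in control and in Dox. By the same rule, 11 genes led the 151 control cells with 10 or more Serpine3 UMIs over the 1074 cells at 0. All 11 were 2-fold higher in the high cells of Dox, where 0.428% of 9821 genes were, and 9 of them were again among the leading genes. Upk3b, a uroplakin, was at 89.2 against 12.1 CPM in control and 8.78-fold higher in the high cells of Dox. Wfikkn2, a secreted protein with protease inhibitor domains, was at 491 against 86.3 and 395 against 68.7, and Nog, the BMP antagonist noggin, was at 205 against 54.2 in control. On the lower side, 12 genes were chosen in control, 9 could be compared and 6 were 2-fold lower in Dox, where 1.42% of genes were. Again among the lowest were 4 of the 12. Grik1, a kainate receptor subunit, was at 2.53 against 25.7 CPM in control and 0.407 against 20.2 in Dox. These companion genes were chosen after their values were seen.

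**Figure D4:**
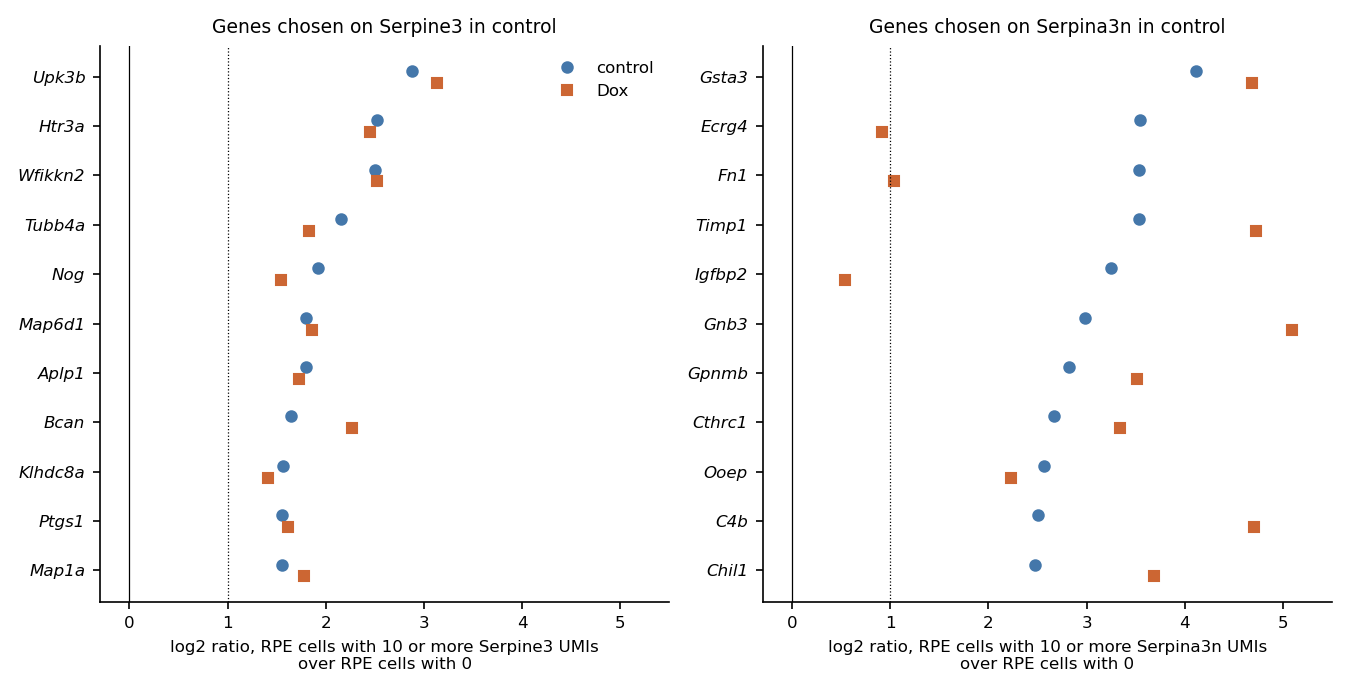
Log2 ratio (x axis) of RPE cells with 10 or more UMIs of Serpine3 or Serpina3n over RPE cells with none. The genes that led in control are listed on the y axis, in a panel for each serpin. Markers give the control and Dox libraries, and a dotted line lies at 1. All 11 Serpine3 companions that led in control lie above 1 in Dox, while 2 of the 10 Serpina3n companions compared lie below it. Fn1, with 22 UMIs in the Dox cells, is drawn beside those 10 but was not compared.

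In their Rpe65 level the Serpine3-high cells were close to RPE cells without a Serpine3 UMI. It was 4780 against 5026 CPM in control and 4714 against 4902 in Dox. The high cells fell in the RPE-like cluster more often. In control 146 of 151 did, against 906 of 1074 cells at 0, and in Dox 108 of 113 against 945 of 1104. Their median depth was 16698 against 16136 UMIs in control and 21825 against 18242 in Dox, and the doublet scores were 0.16 against 0.125 and 0.094 against 0.098. High Serpine3 and high Serpina3n met in few cells. Of the 36 control cells with 10 or more Serpina3n UMIs, 2 also had 10 or more Serpine3 UMIs (5.56% [0.680 to 18.7], against 10.0% of the rest), and in Dox it was 20 of 225 (8.89% [5.51 to 13.4], against 6.62%). At these counts the intervals overlap. Serpine3 overlaps Ints6 on the other strand and a small nucleolar RNA gene. The strand setting of the counting is not given in the sources used here, so whether reads of these genes were counted for Serpine3 is not known.

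Serpinf1, the pigment epithelium-derived factor, was mainly a fibroblast transcript in both libraries. Fibroblast-like cells held it at 1355 CPM in control [1346 to 1364] and 1309 in Dox [1300 to 1319], 89.9% and 93.9% of all its UMIs. RPE cells were the lowest of the named types, at 111 CPM in control [107 to 115; 2916 UMIs] and 69.1 in Dox [66.2 to 72.0; 2155 UMIs], a log2 ratio of -0.68 [-0.76 to -0.60]. Serpine2, the thrombin inhibitor, had the same layout. It was at 4464 and 4808 CPM in fibroblast-like cells and at 341 [334 to 349] and 250 [244 to 256] in RPE cells, a log2 ratio of -0.45 [-0.49 to -0.41].

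The fibroblast RNA in the RPE cells moved with both differences. RPE cells were split by their UMIs of Dcn, Lum, Mgp, Col1a1, Col1a2 and Col3a1, matrix genes of fibroblasts. In cells with 0 to 1 such UMIs (573 and 829 cells) Serpinf1 was at 10.6 CPM in control [8.52 to 13.0] and 9.78 in Dox [8.26 to 11.5], and in cells with 2 to 4 (453 and 454 cells) at 8.56 in each. It was at 362 [348 to 376] and 389 [371 to 407] in cells with 20 or more, which numbered 394 in control and 270 in Dox. Serpine2 went from 35.3 [31.4 to 39.4] and 33.7 [30.8 to 36.7] CPM at 0 to 1 UMIs to 1077 and 1365 at 20 or more. In the strata of 0 to 1 and 2 to 4 UMIs the intervals of the 2 libraries overlapped for both genes, while in cells with 20 or more Serpine2 was higher in Dox. With all cells of 5 or more such UMIs left out, the log2 ratio was -0.05 for Serpinf1 and -0.10 for Serpine2.

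**Figure D5:**
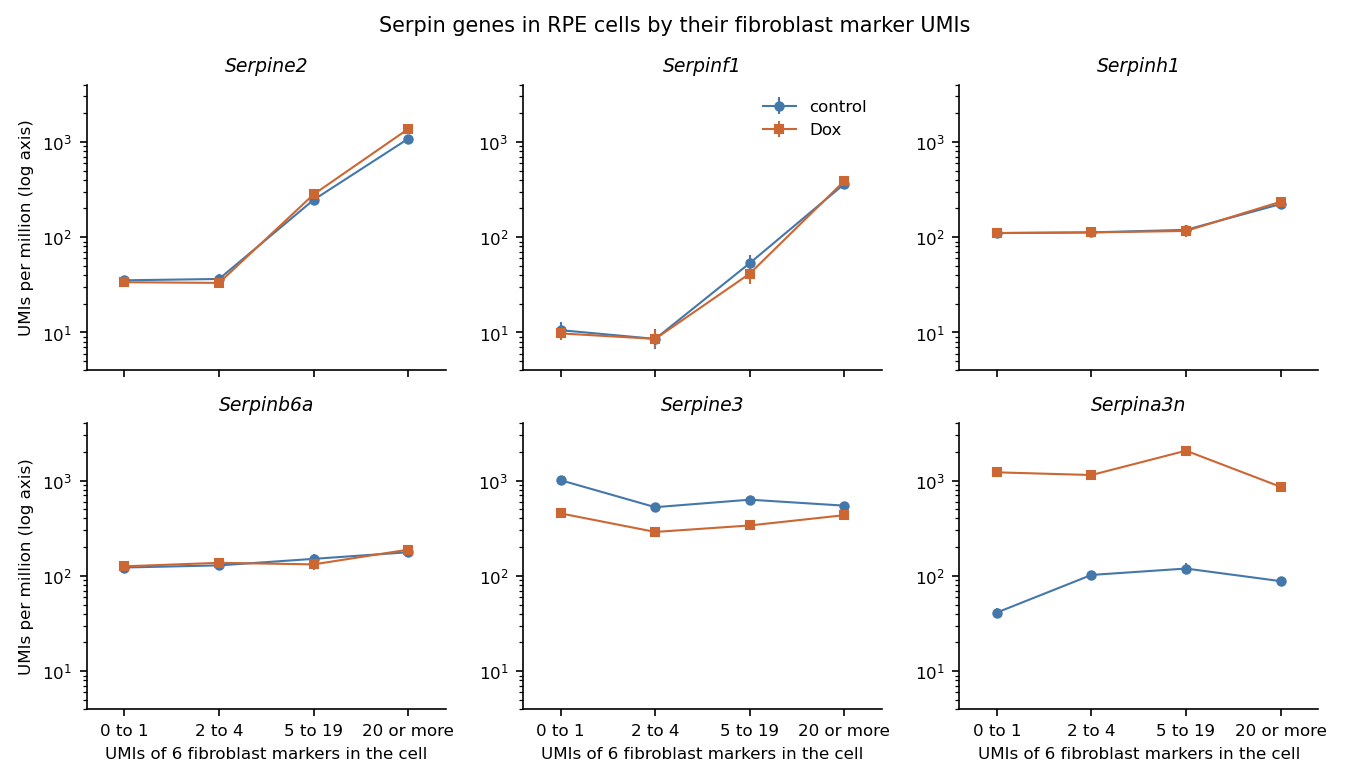
Level of members (CPM, log axis) in RPE cells split by the number of fibroblast marker UMIs per cell, control and Dox library, with 95% Poisson intervals that cover counting error only. Serpinf1 and Serpine2 are higher in cells with more fibroblast UMIs in both libraries, from 10.6 and 9.78 to 362 and 389 CPM for Serpinf1, while Serpina3n differs between the libraries in every stratum.

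Dcn, the fibroblast proteoglycan decorin, served as a yardstick for fibroblast RNA. Per 1000 Dcn UMIs the control RPE cells held 140 Serpinf1 UMIs [135 to 145], the fibroblast-like cells 141 [140 to 142] and the NK or T-like cells 135 [125 to 147]. In Dox these were 159 [152 to 167], 152 [151 to 154] and 125 [111 to 141]. For Serpine2 the RPE and fibroblast-like values were 431 and 464 in control and 577 and 560 in Dox. Serpinf1 in RPE cells thus kept close to the ratio found in fibroblast-like cells. For Serpinh1 the ratio in RPE cells was 180 in control and 301 in Dox, against 61.3 and 70.9 in fibroblast-like cells. Of the other members, Serpina3n kept its difference in all strata: it was 41.2 CPM [37.1 to 45.7] in control and 1220 [1202 to 1238] in Dox in cells with 0 to 1 fibroblast UMIs, and 88.0 and 861 in cells with 20 or more. Serpine3 was lower in Dox in each stratum, at 1008 against 452 CPM in the first and 546 against 433 in the last.

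Serpinh1 and Serpinb6a were spread evenly over RPE cells and were nearly level between the libraries. Serpinh1, the collagen chaperone, was at 143 CPM in control [138 to 147] and 131 in Dox [127 to 135], which is -0.13 on the log2 scale [-0.19 to -0.07]. Serpinb6a, a cytosolic inhibitor, was at 142 [137 to 146] and 139 [135 to 143], a ratio of -0.03 [-0.09 to 0.04]. In both libraries and for both genes the median RPE cell had 2 UMIs, and the shares of cells with a UMI lay between 76.7% and 77.7%, against 28.7% and 22.6% of the shallower NK or T-like cells for Serpinh1 and 31.2% and 27.0% for Serpinb6a. Thinned to 1000 UMIs, Serpinh1 was in 12.7% [11.0 to 14.4] and 11.6% [10.1 to 13.3] of RPE cells. NK or T-like cells gave 9.39% [6.79 to 12.6] and 8.4% [5.27 to 12.6], with overlapping intervals. Serpinb6a was in 13.1% [11.5 to 14.9] and 12.8% [11.2 to 14.6] of RPE cells. It was in 6.34% [4.22 to 9.09] and 8% [4.95 to 12.1] of NK or T-like cells, apart in control only. For Serpinh1, 285 control cells and 309 Dox cells held 50% of the UMIs, and the variance was 2.75 and 2.72 times the mean. In cells with 0 to 1 fibroblast UMIs Serpinh1 was at 110 CPM in control and 111 in Dox. Both genes were nonetheless highest in fibroblast-like cells, Serpinh1 at 589 and 610 CPM and Serpinb6a at 335 and 333. In control their next types were smooth muscle or pericyte and endothelial-like cells, at 477 and 453 CPM for Serpinh1 and 228 and 264 for Serpinb6a. The intervals of these types overlapped. For Serpinb6a the smooth muscle or pericyte interval also overlapped that of melanocyte-like cells, at 214 CPM in control. In Dox these were at 197 and 198 CPM. Serpinb6a overlaps Nqo2, Ripk1 and the antisense gene 1110046J04Rik on the other strand.

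Serpinb9, the granzyme B inhibitor, was highest in lymphocytes. NK or T-like cells held it at 212 CPM in control [193 to 234] and 217 in Dox [192 to 244], and 41.3% and 41.7% of them had a UMI. Endothelial-like cells came next at 57.5 and 55.1 CPM. RPE cells were lowest at 9.61 [8.47 to 10.9; 253 UMIs] and 11.0 [9.83 to 12.2; 342 UMIs], a log2 ratio of 0.19 with an interval from -0.05 to 0.43 that includes no difference. A UMI was seen in 14.2% and 17.6% of RPE cells and in 5.17% and 2.02% of the much shallower melanocyte-like cells. Thinned to 1000 UMIs, the RPE shares were 0.788% [0.408 to 1.37] and 0.859% [0.471 to 1.44], beside 1.81% and 0.636% in melanocyte-like and 2.13% and 1.89% in fibroblast-like cells, so the RPE share did not stand above that background. The melanocyte-like shares leave out 896 control and 1356 Dox cells with too few UMIs to be thinned.

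Serpina3g was hardly detected in RPE cells, with 2 UMIs in each library, or 0.131% and 0.123% of cells. NK or T-like cells held 73 and 62 of its 156 and 96 UMIs, at 36.1 CPM [28.3 to 45.3] and 48.9 [37.5 to 62.7]. Endothelial-like cells had 23.7 CPM in control, an interval that overlapped with that of NK or T-like cells, and 11.5 in Dox on 9 UMIs. It was thus placed apart from its cluster neighbour Serpina3n. Of the 90-base windows in the first 600 bases of its transcripts, 7.63% also occur in Serpina3f, Serpina3h or Serpina3i, so part of its reads may be shared with those genes. No such window was shared for the other 8 members.

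Serpini1, neuroserpin, was found in smooth muscle or pericyte-like cells, at 139 CPM in control on 671 UMIs and 174 in Dox on 377 UMIs, 77.2% and 78.2% of all its UMIs. No other named type exceeded 6.42 CPM. RPE cells had 27 UMIs in control (1.03 CPM [0.676 to 1.49]) and 12 in Dox (0.385 [0.199 to 0.672]), below the 50 UMIs asked for, and their log2 ratio of -1.38 had an interval from -2.53 to -0.39. A single control RPE cell held 6 of the 27 UMIs. A UMI was seen in 1.18% and 0.736% of RPE cells, beside 2.56% and 1.98% of NK or T-like cells, so the RPE values did not stand above that background.

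Genes with a pattern over the 7 cell types of both libraries like that of each member are given with Pearson's r of log2(CPM + 1) over 14 points, which share libraries and released RNA, among 5628 genes. Serpina3n was most like A2m (0.94), Gsta3 (0.88) and Adam7 (0.79). Serpine3 was most like the RPE genes Rlbp1 and Ttr and like Tmem72 (each 0.99). Serpinf1 was most like Dcn (0.996), Col1a1 and Mfap5, genes of the fibroblast matrix, and Serpine2 like Pgf, Cygb and Edn3 (each 0.99). Serpinh1 went with Calu (0.98), a protein of the endoplasmic reticulum, and with Wwtr1 and Selenom, and Serpinb6a with Rxylt1, Sparc and Kdelr1 (each 0.98). Serpinb9 went with Dgka (0.97), Ccm2 and Serpinb6b, Serpina3g with Gimap8, S1pr4 and Gimap5 (each 0.99), genes of lymphocytes, and Serpini1 with Dhx58os (0.98), Rasl12 and Cnnm2.

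Of the 53 Serpin genes that are not members, 4 had 50 UMIs in RPE cells and 0 passed 2-fold. Serping1, the C1 inhibitor of complement, was at 102 CPM in control [98.6 to 106] and 66.8 in Dox [64.0 to 69.7]. Like Serpinf1 it had nearly the same ratio to Dcn in RPE as in fibroblast-like cells, 129 and 134 per 1000 Dcn UMIs in control and 154 and 159 in Dox. Serpinb1a, a neutrophil protease inhibitor, was at 3.27 and 3.91 CPM, and Serpinf2, the antiplasmin, had 33 and 75 UMIs, a log2 ratio of 0.93. Of all 62 Serpin genes, 37 had no UMI in RPE cells and 29 none in any cell of either library.

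Other genes around the serpins were compared by the same 2-fold rule in RPE cells, where 0.446% of all genes were higher and 1.86% lower, and with so few genes a list the counts are descriptions. Of 38 protease inhibitors outside the family, 21 had 50 UMIs, 3 were higher in Dox and 0 lower (median log2 ratio 0.07). They were Slpi, a leukocyte elastase inhibitor (0.95 to 5.38 CPM), A2m (222 to 743) and Timp1 (13.4 to 29.6). Of 44 proteases that serpins act on, 17 had 50 UMIs, 0 were higher and 2 lower (median -0.02). The lower proteases were cathepsin S (Ctss, 15.1 to 4.01 CPM) and Htra3 (6.57 to 2.95), and both were more abundant outside the RPE, at 124 and 63.2 CPM in control. Cathepsin H (Ctsh) went from 20.6 to 12.2 CPM without passing. Of 36 acute-phase and STAT3 pathway genes 23 had 50 UMIs, and 3 were higher and 0 lower (median -0.11): Lcn2 (0.266 to 5.45 CPM), A2m and Timp1.

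Among collagen chaperones and modifying enzymes, which act beside Serpinh1, few passed 2-fold. Of 30, 28 had 50 UMIs, 0 were higher and 1 lower (median -0.04). The lower gene was P3h2, a prolyl hydroxylase, at 36 and 18 UMIs. Kdelr3 went from 9.27 to 5.42 CPM and Pcolce, an enhancer of procollagen processing, from 653 to 1048, both within 2-fold. Of 21 receptors and ligands of Serpinf1, Serpine2 and Serpini1, 19 had 50 UMIs and 0 passed in either direction (median -0.06), with Plaur, the urokinase receptor (-0.58), thrombomodulin (Thbd, -0.57) and Plxdc1 (-0.51) the farthest from 0 on the log2 scale. The macrophage and dendritic cell RNA in RPE cells, at 434 CPM in control and 201 in Dox over 23 markers, moved with Ctss, and its part was not tested.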

How the data were processed

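The deposited matrices hold counts of unique molecular identifiers (UMIs) per gene and cell, made by the authors with Cell Ranger (4.0.0 in the file headers) on mm10 from 10x 5′ libraries. The annotation version and strand setting are not given in the sources used here. No count was normalized. Each library totalled 117731270 (control) and 103997248 (Dox) UMIs, and columns of other samples numbered 0.

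Following the study's methods, cells were kept with over 500 UMIs, 200 to 6000 genes, complexity (log genes per log UMI) over 0.8 and a mitochondrial share under 0.2. RPE cells had at least 10 Rpe65 UMIs. All kept cells were clustered in Seurat 5.3.0 with sctransform 0.4.2 (R 4.3.3), the 12 Serpin genes among 3000 features removed, at resolution 0.1. Clusters were named "X-like" from fixed marker lists. A name needed a marker among the 10 leading genes and at least 3 markers at 10 CPM or more, 2-fold above all other cells. A cluster led by long non-coding RNAs stayed unnamed, by a rule added after the clusters were seen. Scrublet (scanpy 1.11.5) called 1941 control cells (9.62%) and 0 of 15426 Dox cells at its own threshold and so did not work in Dox. Doublets were therefore kept, and an alternative left out the highest scores at the expected rate (3258 and 1904 cells).

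UMIs were summed per cell type and library and given per 1000000 UMIs (CPM). With 1 library per condition there was no test. Intervals are exact at 95% (Poisson, Clopper-Pearson for shares, conditional binomial for ratios). Log2 ratios had 0.5 counts added, and genes needed 50 UMIs over both libraries in RPE cells to be counted past 2-fold, or 100 in the cells compared for the genes that go with Serpine3 or Serpina3n. Thinning drew 5000 UMIs per cell (1000 across types) and left out cells with fewer. The scripts were tested on simulated counts. Other software was Python 3.11.15, numpy 2.4.6, scipy 1.17.1, pandas 2.3.3 and matplotlib 3.10.9.

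The members and gene lists were chosen with earlier results of these data known. Named genes were the 9 members, other Serpin genes with 50 UMIs in RPE cells (at most 6), the 3 genes of each list with the largest log2 ratio, the 3 genes most like each member among those at 50 CPM in a cell type, and Dcn, Rpe65, Cdkn1a and A2m. Alternatives varied the Rpe65 limit, cell filters, doublets, fibroblast RNA, scaling, gene filter, call and clustering. Promoters are from RefSeq (9 members matched, 10 entries), and gene positions from GENCODE on GRCm38. Some genes that the rule would name are not reported here.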

Additional observations from a re-analysis of the deposited data

Results flagged for a closer look

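For 4 members the log2 ratio of Dox over control was below 0 in RPE cells and above 0 in all other cells together, with both counting intervals off 0. The difference was not tested, since each condition is 1 library. It was -1.54 for Serpine3 (-0.83 in RPE cells, 0.71 in the others), -0.72 for Serpinf1, -0.64 for Serpine2 and -0.21 for Serpinh1. Serpinb6a also had opposite signs (-0.03 and 0.03), with an RPE interval that included 0. Serpine3 was above 0 in each of the 6 named types outside the RPE. The pooled value hid the types for the others: Serpinf1 was below 0 in all 6 (from -0.95 in melanocyte-like to -0.05 in fibroblast-like cells), Serpinh1 in 5 and Serpine2 in 4, so in most types they had the same sign as in RPE cells. With the RPE cells of 5 or more fibroblast marker UMIs left out, the ratios in RPE cells were -0.05 for Serpinf1 and -0.10 for Serpine2.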

How the results depend on the processing

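Serpina3n stayed over 2-fold higher in Dox RPE cells in all 16 alternatives, including both added after the data were seen. Its log2 ratio moved from 3.90 beyond its counting interval in 7 of them. It was 3.77 with RPE cells set by 1000 Rpe65 CPM, 3.46 without cell filters beyond 500 UMIs, 4.07 without the highest doublet scores, 4.07 without the cells of 5 or more fibroblast marker UMIs and 3.998 when thinned. It was 1.90 without the cells of 100 or more Serpina3n UMIs and 1.34 without those of 10 or more, both added after the data were seen. The number of members past 2-fold was 1, and became 2 with genes of at least 10 UMIs (Serpini1 then entered) and 3 at 1.5-fold; it was 1 with 100 UMIs. The type with the highest control level was kept for all 9 members or, at resolution 0.2 and with the mean of the cells' own CPM, for 8. Serpina3n was then highest in a haemoglobin-led cluster and in melanocyte-like cells. With the high cells kept, the log2 ratio over the alternatives ranged from -0.99 to -0.62 for Serpine3, -0.84 to 0.08 for Serpine2, -0.89 to -0.05 for Serpinf1, -0.15 to 0.00 for Serpinh1, -0.04 to 0.05 for Serpinb6a, 0.02 to 0.34 for Serpinb9 and -2.52 to 0.20 for Serpini1, none past 2-fold except the last. With 5 Rpe65 UMIs, Serpine2 was at 0.08. The causes of these shifts were not tested. Counting alone limits Serpina3g and Serpini1 in RPE cells. No paired analysis was possible because each condition is 1 library. Leaving out a replicate was not possible either.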
